A study of Mus musculus with 6 samples.

Results

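Values are reported here for 7 genes of the GABA-A receptor alpha, gamma and delta subunits, Gabra2, Gabra3, Gabra4, Gabra5, Gabrg1, Gabrg3 and Gabrd, taken by symbol from a table of 54658 genes. All 7 passed the filter on low counts, among 17563 genes tested. GABA-A receptors are chloride channels built from 5 subunits that open when the transmitter GABA binds, and they carry most fast inhibition in the brain. Receptors that hold a gamma subunit sit largely at synapses, where alpha and gamma subunits form the site for benzodiazepines, whereas receptors that pair the delta subunit with alpha 4 lie outside synapses and respond to low, lasting levels of GABA and to neurosteroids. In the striatum nearly all projection neurons are themselves GABAergic, so these subunits set both the input from outside and the inhibition between neighbouring cells.

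The RNA came from the nucleus accumbens, the ventral part of the striatum, of male C57BL6 mice bought at 8 weeks of age. One group of 3 libraries (Gas5 A, B and C) received a herpes simplex virus vector, p1005+, with the long noncoding RNA Gas5 and EGFP, and the other group of 3 (GFP A, B and C) received that vector with EGFP alone, so injection, virus and EGFP were common to both. Below, the values of a gene are given in the library order A, B, C. The labels give neither the cell type that takes up the virus, nor the share of cells infected, nor whether a sample was 1 mouse or a pool. The p-values therefore measure only the spread between these samples, which may be technical. The title of the series names a role for Gas5 in how cocaine acts, and no library here is labelled with cocaine.

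Total counts per library ranged from 32359052 to 56081575. Levels are CPM, counts scaled to a common library total with the trimmed mean of M-values (TMM). Gas5 itself stood at 22.6, 23.3 and 23.6 CPM in its own group, against 18.6, 16.5 and 18.3 CPM with GFP. It rose 1.30-fold (edgeR adjusted p 0.0163) and the groups did not overlap, although the call was lost without GFP B (adjusted p 0.0727) and without GFP C (0.0677). Of its span 26.6% is shared with 10 other listed genes and was not counted, which leaves 78.2% of its exon bases. All 12 listed markers of medium spiny neurons, the principal neurons of the accumbens, were detected, with a summed level of 5218 to 6591 CPM in the Gas5 and 6010 to 6758 CPM in the GFP libraries, and edgeR called 0 of them. Of these markers 2 had an unadjusted p under 0.05 and DESeq2 called 1, the prodynorphin gene Pdyn (log2 fold change 0.37, adjusted p 0.0551 by edgeR and 0.00579 by DESeq2), which was called in 5 of 14 alternatives. Of 12 markers of cortical excitatory neurons 9 fell in the Gas5 libraries, beside 3.96% of all tested genes called lower. Their median log2 fold change was -2.69, and 1 of the 12 was positive, at 0.10. The summed level was 190 to 248 CPM against 420 to 565 CPM, and 0 of these 12 genes were at 0. The mean log2 CPM of these 12 genes, called the cortical marker score below, averaged 2.35 ± 0.477 (SD, n = 3) in the Gas5 group and 4.12 ± 0.307 (SD, n = 3) in the GFP group, with no overlap. In bulk tissue fewer cells of a type and less RNA per cell cannot be told apart.

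Of the 7 genes, 1 was called at an adjusted p under 0.05: Gabrg1, which rose 1.77-fold in the Gas5 libraries. None was called lower. Among all tested genes the same edgeR quasi-likelihood test called 5.44%, with 1.48% higher and 3.96% lower, and the count of 1 among 7 rests on a single gene. The groups did not overlap for 3 of the 7, Gabrg1, Gabra2 and Gabra3, and for 27.7% of all tested genes. An unadjusted p under 0.05 was reached by the same 3 genes and by 21.4% of all tested genes. The median log2 fold change of the 7 was 0.03, beside 0.02 for all tested genes.

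**Figure D1:**
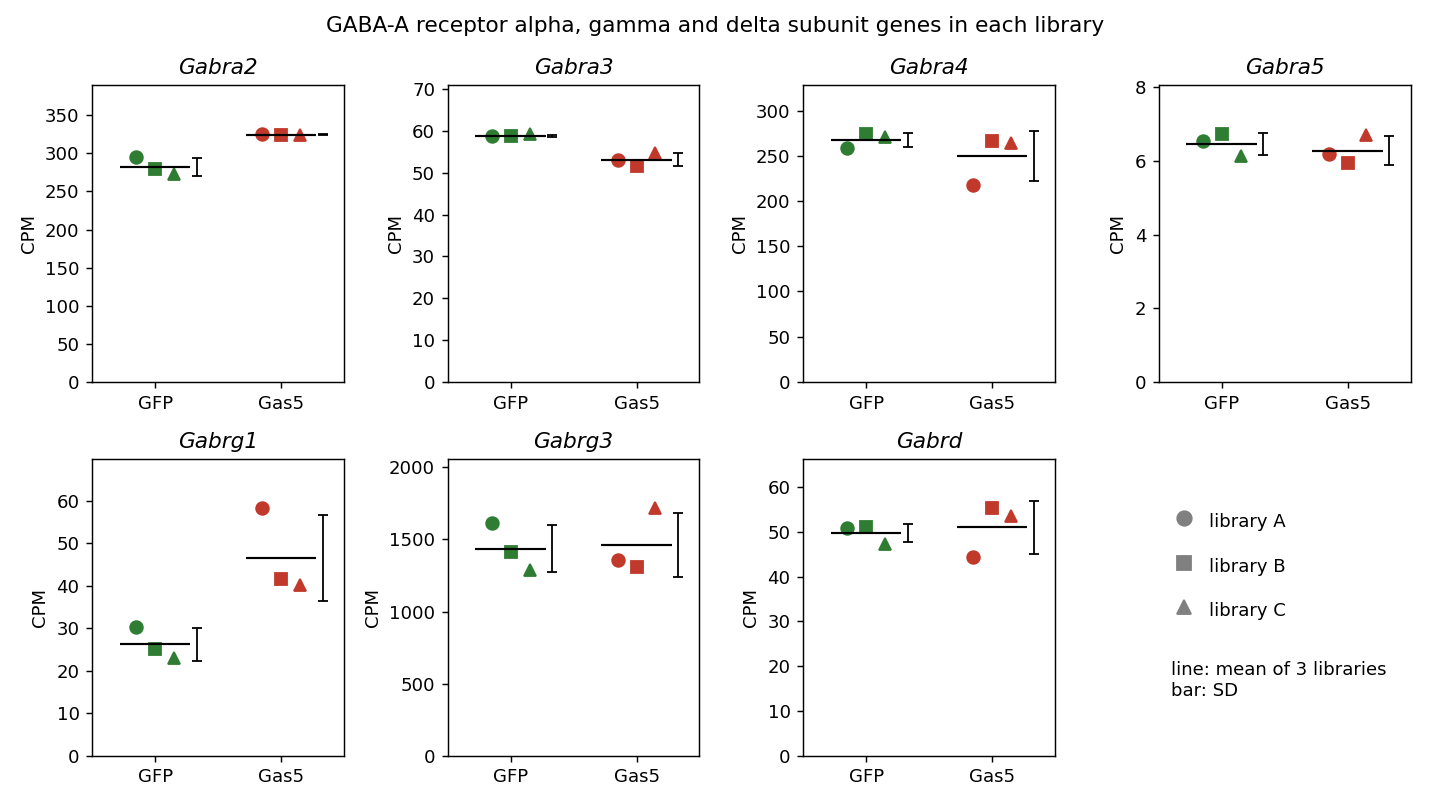
CPM (vertical axis, from 0) of each of the 7 subunit genes in the 3 GFP (green) and 3 Gas5 (red) libraries, with the shape giving the library letter, a line for the mean and a bar for the SD. Gabrg1 spans 23.0 to 30.4 CPM in GFP and 40.1 to 58.2 CPM in Gas5, the 3 Gas5 values of Gabra2 lie within 323.9 to 324.9 CPM, and the groups overlap for Gabra4, Gabra5, Gabrg3 and Gabrd.

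Gabrg1 encodes the gamma 1 subunit, whose receptors bind many benzodiazepines only weakly. It measured 58.2, 41.5 and 40.1 CPM with Gas5 and 30.4, 25.1 and 23.0 CPM with GFP, from 731 to 2511 counts per library. Every Gas5 library lay above every GFP library, and Gas5 A lay well above the other two. The means were 46.6 CPM ± 10.1 and 26.2 CPM ± 3.80 (SD, n = 3 each). edgeR put the log2 fold change at 0.83 ± 0.153 (SE), adjusted p 0.0224, at rank 407 of all genes by p. An exact permutation test, 2-sided, gave p = 0.1, the smallest that 3 against 3 libraries allow. Leaving out Gas5 A, the highest library, gave 0.63 (adjusted p 0.0178, in a fit that called 0.633% of genes higher). The call was lost without GFP B (0.80, adjusted p 0.105) and without GFP C (0.74, adjusted p 0.110), in fits that called 0.0223% and 0.0336% of genes higher. Adding the cortical marker score as a covariate turned the estimate to -0.30 ± 0.138 (SE), adjusted p 0.998. That fit called 0% of genes, over 6 libraries in which the score separates the groups. Across the 6 libraries, and so within each group too, Gabrg1 CPM ran in the reverse order of the score. Gas5 A, the highest library for Gabrg1, had the lowest score, and GFP C, the lowest for Gabrg1, had the highest. This order is a description, and its cause was not tested.

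Genes for gamma 1 and alpha 2 are also transcribed in astrocytes. Of the 7 astrocyte markers listed, 1 rose, the water channel gene Aqp4 (1.30-fold, adjusted p 0.0486), with 36.7% of its span shared with another gene and not counted. The Aqp4 call was lost when either of Gas5 A and C, or either of GFP B and C, was dropped (adjusted p 0.0900 to 0.188) and with limma-voom (0.0536). The list had 6 positive log2 fold changes of 7 and a median of 0.28. Its summed level overlapped between the groups, at 2544 to 3049 CPM with Gas5 and 2901 to 3102 CPM with GFP. An unadjusted p under 0.05 was reached by 4 of the 7 and by 21.4% of all tested genes. DESeq2 called 2 of the 7 higher, beside 2.87% of all genes, where edgeR called 1, beside 1.48%. No gene of the list was at 0. The part of these cells in the Gabrg1 values was not tested.

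Gabrg1 and Gabra2 are neighbours. They lie on chromosome 5 of GRCm38 in a cluster that reads Gabrg1 (70751047 to 70842617, minus strand), Gabra2 (70957597 to 71095849, minus strand), Gabra4 (71569749 to 71658308, minus strand) and Gabrb1, the beta 1 gene (71658113 to 72149037, plus strand). A gap of 115 kb separates the spans of Gabrg1 and Gabra2, and Gabra4 and Gabrb1 stand head to head with 196 shared bases. The log2 fold changes of these subunit genes along the cluster were 0.83, 0.20, -0.10 and 0.07, so the subunit gene next to Gabrg1 had the next value in size. Other listed genes within this stretch are not described here. Whether the values of neighbouring genes differ from each other was not tested.

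**Figure D2:**
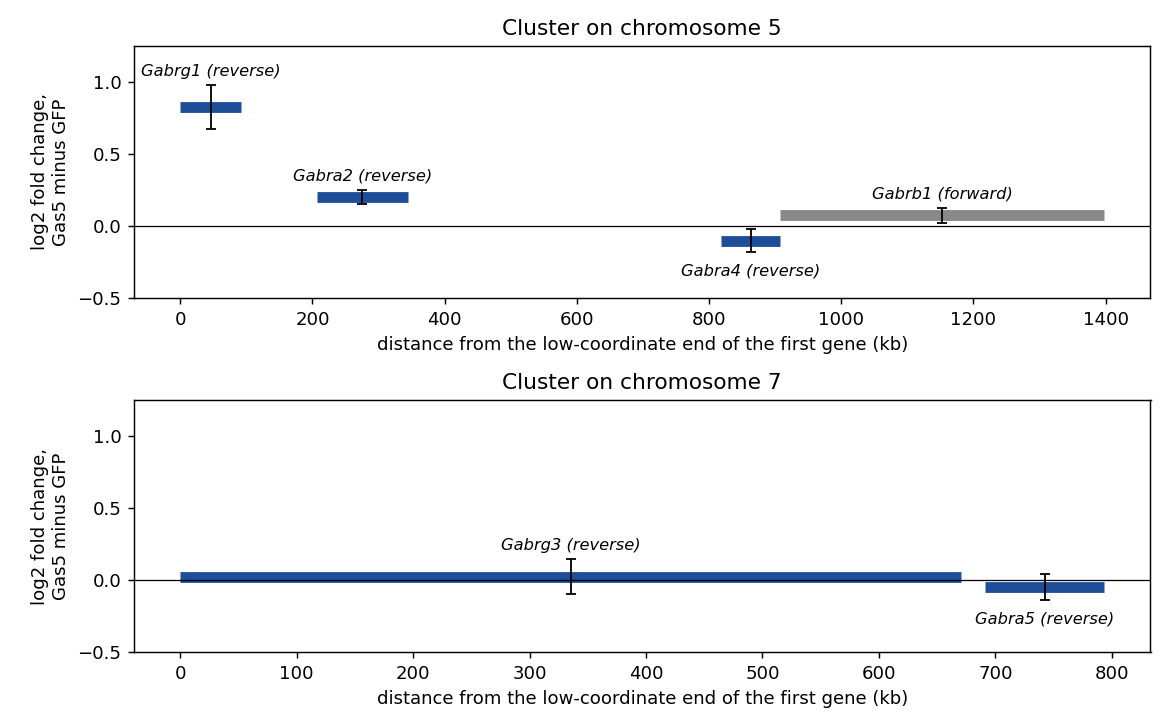
Log2 fold change, Gas5 minus GFP (vertical axis), against distance along the chromosome in kb from the low-coordinate end of the first gene, for the clusters on chromosomes 5 and 7. Bars span the genes (blue for alpha and gamma genes, grey for the beta gene Gabrb1), whiskers are standard errors, and the strand is in brackets; Gabrg1 at 0.83 and Gabra2 at 0.20 stand above 0 and Gabrg3 and Gabra5 on chromosome 7 lie within 0.05 of 0.

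The upstream sequences of these neighbours are shown because the genes with the 2 largest positive values among the 7 begin in unlike sequence. RefSeq, on build GRCm38.p6, gave a start for 6 of the 7 genes, and Gabrd had no entry. Each line is the 250 bases before the start of a gene on the minus strand, read 5′ to 3′, for Gabrg1 at chr5:70842618-70842867, Gabra2 at chr5:71095850-71096099 and Gabra4 at chr5:71658309-71658558. Capitals mark matches on either strand to the CCAAT box (CCAAT) or the GC box (GGGCGG).
Gabrg1: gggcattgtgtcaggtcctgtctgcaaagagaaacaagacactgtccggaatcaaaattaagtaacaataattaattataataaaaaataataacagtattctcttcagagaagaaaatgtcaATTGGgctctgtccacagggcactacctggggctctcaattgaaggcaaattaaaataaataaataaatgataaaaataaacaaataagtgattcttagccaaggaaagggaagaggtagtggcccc
Gabra2: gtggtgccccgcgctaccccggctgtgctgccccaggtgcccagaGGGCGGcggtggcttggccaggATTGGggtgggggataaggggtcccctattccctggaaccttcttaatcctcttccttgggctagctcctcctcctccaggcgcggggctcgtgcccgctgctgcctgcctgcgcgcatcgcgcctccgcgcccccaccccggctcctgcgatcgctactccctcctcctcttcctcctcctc
Gabra4: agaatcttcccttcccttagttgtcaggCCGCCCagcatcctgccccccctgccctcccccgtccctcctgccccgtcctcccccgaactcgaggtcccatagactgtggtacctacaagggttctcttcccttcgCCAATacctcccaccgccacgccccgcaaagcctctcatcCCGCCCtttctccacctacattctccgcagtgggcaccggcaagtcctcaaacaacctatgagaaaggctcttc
The Gabrg1 stretch was 35.6% G or C with 1 CpG, against 70.0% with 18 CpG for Gabra2 and 61.2% with 12 CpG for Gabra4, and the median over 32851 such stretches in the RefSeq table was 52.4% with 6 CpG. A CCAAT box lay in all 3 and in 33.8% of all stretches. A GC box lay in Gabra2 (1 match) and Gabra4 (2 matches), in 0 places in Gabrg1, and in 32.7% of all stretches. Neither the TATA box (TATAAA, in 12.4% of all) nor the cAMP response element (TGACGTCA, in 1.55% of all) was found in these 3. These matches describe letters and not bound sites.

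Among the alpha genes, Gabra2 stood just outside the threshold. It encodes alpha 2, a synaptic subunit abundant in the striatum and other limbic regions. Its levels were 324.9, 323.9 and 324.7 CPM with Gas5, and 294.8, 279.2 and 272.7 CPM with GFP. All Gas5 values exceeded all GFP values and lay close together. The means were 324.5 CPM ± 0.554 and 282.2 CPM ± 11.4 (SD, n = 3 each). The estimate, 1.15-fold or a log2 fold change of 0.20 ± 0.0486 (SE), had an edgeR adjusted p of 0.0511. DESeq2 called it (adjusted p 0.0116, with 2.87% of genes called higher), as did limma-voom (0.0497, 1.23%). So did edgeR under upper quartile scaling (0.0415, 1.8%), without the filter on low counts (0.0363, 2.29%) and with a filter of 1 CPM in 3 libraries (0.0453, 1.78%). It was not called under RLE scaling (0.0585) or with the replicate letter as a block (0.0512). No fit that left out a library called it, with adjusted p from 0.0570 to 0.217 and log2 fold changes from 0.18 to 0.23. Fitted beside the cortical marker score it stood at 0.10 ± 0.129 (SE).

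Gabra3, an X-linked gene for the alpha 3 subunit, went the other way. It lies at 72432681 to 72656848 on the X chromosome, minus strand. It had 53.1, 51.6 and 54.7 CPM with Gas5 and 58.7, 58.8 and 59.2 CPM with GFP. The groups did not overlap, and the GFP libraries had an SD of only 0.265 CPM. At -0.15 ± 0.0422 (log2, SE; edgeR adjusted p 0.0842) it was not called, nor was it in any of the 14 other settings run (adjusted p 0.0757 to 0.998). The cortical marker score was lower in these libraries too, and the fit that holds it gave -0.12 ± 0.126 (SE).

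Gabra4 encodes alpha 4, the usual partner of delta in receptors outside synapses. It measured 217.7, 266.7 and 263.9 CPM with Gas5 and 259.0, 273.6 and 270.5 CPM with GFP. Gas5 A was the low library and the other 5 lay between 259.0 and 273.6 CPM, so the groups overlapped. The difference was -0.10 ± 0.0788 (log2, SE; edgeR adjusted p 0.501), or -0.02 without Gas5 A, and 0.38 ± 0.139 (SE; adjusted p 0.998) beside the cortical marker score. Gabrd, the delta gene on chromosome 4 (155384980 to 155398112, minus strand), had 44.3, 55.3 and 53.6 CPM with Gas5 and 51.0, 51.1 and 47.4 CPM with GFP. Here too Gas5 A was lowest, while Gas5 B and C were highest. This came to 0.04 ± 0.0818 (log2, SE; edgeR adjusted p 0.844), with 0.12 when Gas5 A was left out and -0.03 when Gas5 B was. Beside the cortical marker score Gabrd stood at 0.40 ± 0.200 (SE; adjusted p 0.998). Gas5 A also had the lowest summed level of the medium spiny neuron markers, 5218 CPM against 6010 to 6758 CPM in the other 5 libraries, and the part of this in its Gabra4 and Gabrd values was not tested.

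Gabra5 and Gabrg3 lie in a cluster on chromosome 7, with 20.5 kb between them. Gabra5 encodes alpha 5, a subunit best known from the hippocampus, and its values here come from a small part of the gene. It spans 57407672 to 57510059 on the minus strand, and 90.5% of that span also belongs to other listed genes. Reads in such overlaps are absent from the counts: all 6303 listed genes that lie wholly inside others on the opposite strand only had 0 counts in every library, as had all 5916 inside others on the same strand only, against 31.8% of the genes not inside another. Strand was thus not used, and reads of overlapping genes cannot be told apart. For Gabra5 this leaves 9750 bases, with 365 bases or 12.3% of its exon sequence. On that remainder Gabra5 had 6.19, 5.94 and 6.71 CPM with Gas5 and 6.55, 6.72 and 6.14 CPM with GFP, from 195 to 364 counts. The groups overlapped, at -0.05 ± 0.0910 (log2, SE; edgeR adjusted p 0.817). The exon bases outside that remainder were not measured.

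Gabrg3 encodes gamma 3, and at 670724 bases (56716465 to 57387188, minus strand) it was the longest of the 7 and had the highest raw level. Its CPM were 1358, 1312 and 1717 with Gas5 and 1613, 1411 and 1285 with GFP. Gas5 C was highest and GFP C lowest, and the spread within each group, an SD of 222 and of 165 CPM, exceeded the difference between the means. It was not called, at 0.03 ± 0.120 (log2, SE; edgeR adjusted p 0.929), and turned to -0.12 without Gas5 C and -0.05 without GFP C. Exons make up 1.78% of the span, and reads in introns were counted too.

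Levels of different genes can be set side by side only per length. Per kb of span, the Gas5 means ran from Gabrd (3.89 CPM per kb ± 0.450) through Gabra4 (2.82 ± 0.311), Gabra2 (2.35 ± 0.00400), Gabrg3 (2.18 ± 0.331), Gabrg1 (0.509 ± 0.110) and Gabra3 (0.237 ± 0.00685) to Gabra5 (0.0613 ± 0.00384; SD, n = 3 for each). With GFP they ran from Gabrd (3.79 CPM per kb ± 0.159) through Gabra4 (3.02 ± 0.0870), Gabrg3 (2.14 ± 0.247), Gabra2 (2.04 ± 0.0821), Gabrg1 (0.286 ± 0.0415) and Gabra3 (0.263 ± 0.00118) to Gabra5 (0.0632 ± 0.00290; SD, n = 3 for each). Gabra2 and Gabrg3 thus changed places between the groups, and their values overlapped in both. Gabrg1 and Gabra3 overlapped with GFP, at 0.251 to 0.332 and 0.262 to 0.264 CPM per kb, but not with Gas5. The delta and alpha 4 genes headed the order in both groups. Exons make up 21.9% of the Gabrd span and 1.75% to 8.59% of the spans of the other 6 genes, and the counts do not separate exon from intron reads. Per kb of the unshared part, Gabra5 stood at 0.644 CPM per kb ± 0.0403 with Gas5 and 0.663 ± 0.0305 with GFP (SD, n = 3 each). On that scale it lay above Gabrg1 in 5 of 6 libraries, while in Gas5 A it had 0.635 and Gabrg1 0.636 CPM per kb.

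As shares of the summed CPM per kb of the 7 genes, which do not depend on library scaling, Gabrg1 made up 5.71%, 3.70% and 3.44% with Gas5 and 2.77%, 2.34% and 2.26% with GFP. Gabra2 made up 21.1%, 19.1% and 18.5% against 17.8%, 17.3% and 17.7%. Both were higher in every Gas5 library. Gabra3 was lower in every Gas5 library, at 2.12%, 1.88% and 1.92% against 2.18%, 2.24% and 2.37%. For each of these 3 shares the exact permutation test, 2-sided, gave p = 0.1, the smallest possible, and 0.233 after Benjamini-Hochberg adjustment over the 7. Gabra4 fell short of separation, at 22.1% to 24.6% in Gas5 and 24.4% to 27.4% in GFP (exact p = 0.2), and Gabrd held about 32.2% against 32.7% (exact p = 0.7). As shares of the plain CPM sum, only Gabrg1 kept its groups apart.

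**Figure D3:**
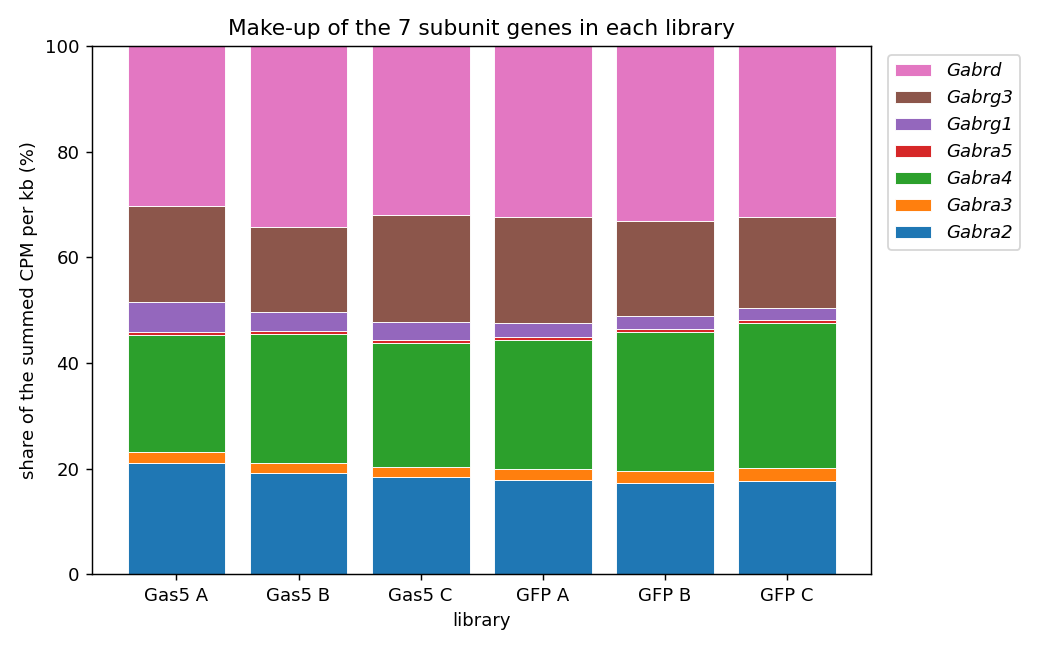
Share of each of the 7 genes in their summed CPM per kb (vertical axis, percent), stacked for each library (horizontal axis). Gabrd is the largest part everywhere, from 30.3% to 34.4%, and the Gabrg1 band is wider in the 3 Gas5 libraries, from 3.44% to 5.71%, than in the 3 GFP libraries, from 2.26% to 2.77%.

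Values are given for 9 other subunit genes, of which 6 were tested. Of these 6, edgeR called 0 in either direction, 2 had an unadjusted p under 0.05 (Gabrq and Gabrr1, a rho subunit gene at 0.82 ± 0.304, log2, SE, adjusted p 0.162), and DESeq2 called 1. Gabrr1 was called when GFP A was left out, at 1.32 (adjusted p 0.0342, in a fit that called 1.33% of genes higher). Gabrq, for the theta subunit, had the largest estimate of the 6, 1.82 ± 0.544 (log2, SE; edgeR adjusted p 0.0970), but Gas5 A held 4.36 CPM and the other 5 libraries 0.504 to 1.36 CPM, and the estimate was 0.92 without Gas5 A. DESeq2 called Gabrq, with an adjusted p of 0.00405. Gabrb1 and Gabrb2, which supply the beta subunits needed in most receptors, had log2 fold changes of 0.07 and -0.07 and adjusted p of 0.442 and 0.445. Gabra6, Gabrp and Gabrr3 had between 0 and 4 counts per library and were not tested.

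**Figure D4:**
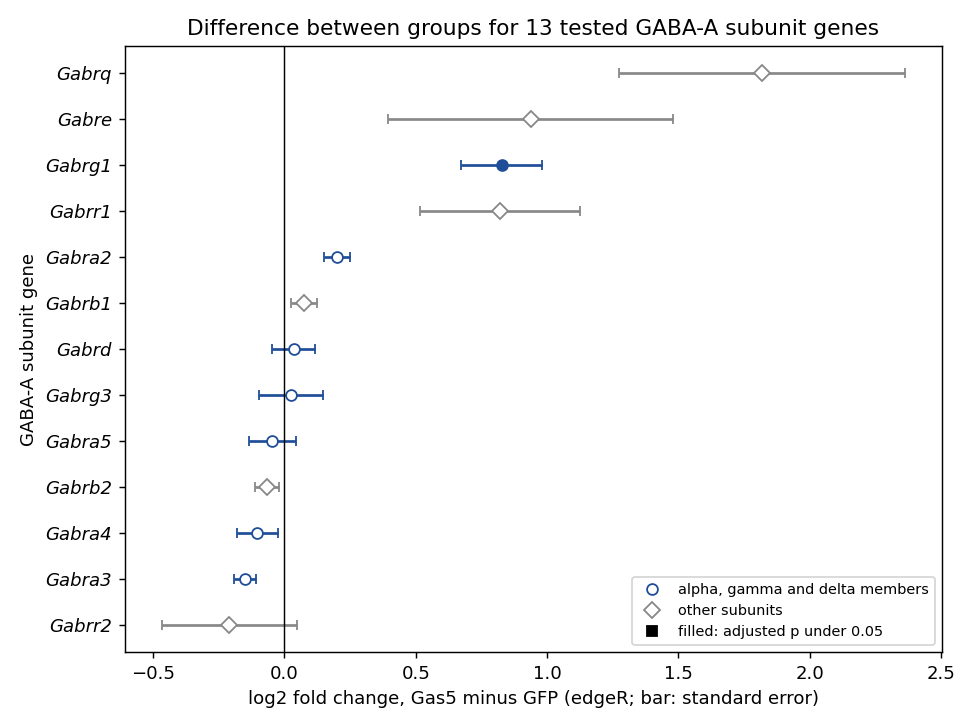
Log2 fold change, Gas5 minus GFP, with its standard error (horizontal axis) for 13 GABA-A subunit genes (vertical axis), blue for the 7 alpha, gamma and delta genes described and grey for the others, filled where the edgeR adjusted p was under 0.05. Gabrg1 at 0.83 is filled, and Gabrq, Gabre and Gabrr1 lie to the right with wide errors.

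Of 21 genes for proteins that anchor, assemble or move the receptors 1 rose and 1 fell, with a median log2 fold change of -0.05. For comparison with the lists here, edgeR called 1.48% of all tested genes higher and 3.96% lower. Hap1, for a huntingtin-associated protein that carries GABA-A receptors back to synapses, rose 1.73-fold (adjusted p 0.0222), with 182.0 to 254.5 CPM in the Gas5 and 109.4 to 142.2 CPM in the GFP libraries. Its call was lost without GFP B (adjusted p 0.106) and GFP C (0.114). Plcl1, for a phospholipase C-like protein that binds the receptors, fell 1.49-fold (log2 fold change -0.57, adjusted p 0.0347). Plcl1 was no longer called when Gas5 A, Gas5 C or either of GFP B and GFP C was left out (adjusted p 0.0527 to 0.133). Among 11 genes for GABA synthesis, transport, breakdown and the chloride gradient 1 rose and 0 fell, with a median of 0.11. It was Gad2, for a GABA-making enzyme, at 1.24-fold (adjusted p 0.0435), a call lost in 4 of the 6 fits that left out a library (those without B or C of either group, adjusted p 0.0668 to 0.192). Of these 11 genes 6 reached an unadjusted p under 0.05, beside 21.4% of all tested genes. The groups did not overlap for 5 of the 11, beside 27.7% of all tested genes. Of 6 genes for endogenous modulators 5 were tested and 0 called by edgeR. An unadjusted p under 0.05 was reached by 3 of these genes and by 21.4% of all tested genes. DESeq2 called 2 of them higher and 1 lower, beside 2.87% of all genes called higher, and its share called lower is not given here. The lowest p among them were those of Tspo, a mitochondrial protein linked to neurosteroid synthesis, at 0.66 (adjusted p 0.0659), and Cyp11a1, the enzyme that makes pregnenolone, at -0.79 (adjusted p 0.0936). The cortical marker score differed between the same libraries for all of these genes. Beside it Hap1 turned to -0.28 ± 0.126, Plcl1 to 0.24 ± 0.187, Tspo to -0.06 ± 0.434 and Cyp11a1 to 0.61 ± 0.478 (SE). Gad2 kept its direction there, at 0.26 ± 0.200 (SE; adjusted p 0.998) against 0.31. That fit called 0% of genes higher, and the score separates the groups, so turned or kept directions cannot tell score from group.

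Hap1 and Dpyd were among the genes whose pattern over the 6 libraries was nearest to that of Gabrg1. The measure was the root-mean-square distance between mean-centred log2 CPM values, at 0.0427 for Hap1 and 0.0672 for Dpyd, which encodes a pyrimidine-degrading enzyme. Hap1 was on the list of receptor partners and was also the nearest of all eligible genes. Their likeness to Gabrg1 chose them and is a description.

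Other marker lists gave the surroundings of these values. In the Gas5 libraries 1 of 8 interneuron markers fell (Vip), 1 of 5 thalamic markers (Slc17a6), 1 of 4 tested of 8 markers of septum, preoptic area and hypothalamus (Trpc4), 1 of 6 oligodendrocyte markers (Aspa) and 1 of 3 endothelial markers (Flt1), and none of these lists had a member that rose, beside 3.96% of all tested genes called lower. Log2 fold changes were positive for 4 of 8 interneuron markers (median -0.03), 3 of 5 thalamic (0.02) and 2 of 3 endothelial markers (0.01). They were positive for 1 of the 4 tested markers of septum, preoptic area and hypothalamus (median -0.30). Vip had 22 to 107 counts per library. With each of the 6 libraries left out in turn, Slc17a6 was called in 6 fits, Vip in 4, Trpc4 in 2, and Aspa and Flt1 in 1 each. Neither limma-voom (adjusted p 0.0576) nor upper quartile scaling (0.0543) called Aspa. All 6 oligodendrocyte markers had a negative log2 fold change, with a median of -0.32. DESeq2 called 3 of them lower, and its share of all genes called lower is not given here. The markers of septum, preoptic area and hypothalamus summed to 35.5 to 43.3 CPM in the Gas5 and 49.4 to 51.1 CPM in the GFP libraries. Of 4 tested neuroblast, 2 precursor and 4 tested microglia markers 0 were called by edgeR, and an unadjusted p under 0.05 was reached by 0, 1 and 2 of them. The 4 microglia markers had positive log2 fold changes with a median of 0.18. C1qa, a complement gene among them, stood at 0.35 ± 0.0832 (log2, SE; edgeR adjusted p 0.0502) and was called by DESeq2 (0.0147) and limma-voom (0.0484), but in 0 of the 6 fits that left out a library. DESeq2 and limma-voom called 0 neuroblast and 0 precursor markers. Dlx1 among the neuroblast and P2ry12 among the microglia markers, and Srd5a1 among the modulators, were at 0 in every library, and all 3 lie wholly inside a gene on the opposite strand, so that their level was not measured.

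**Figure D5:**
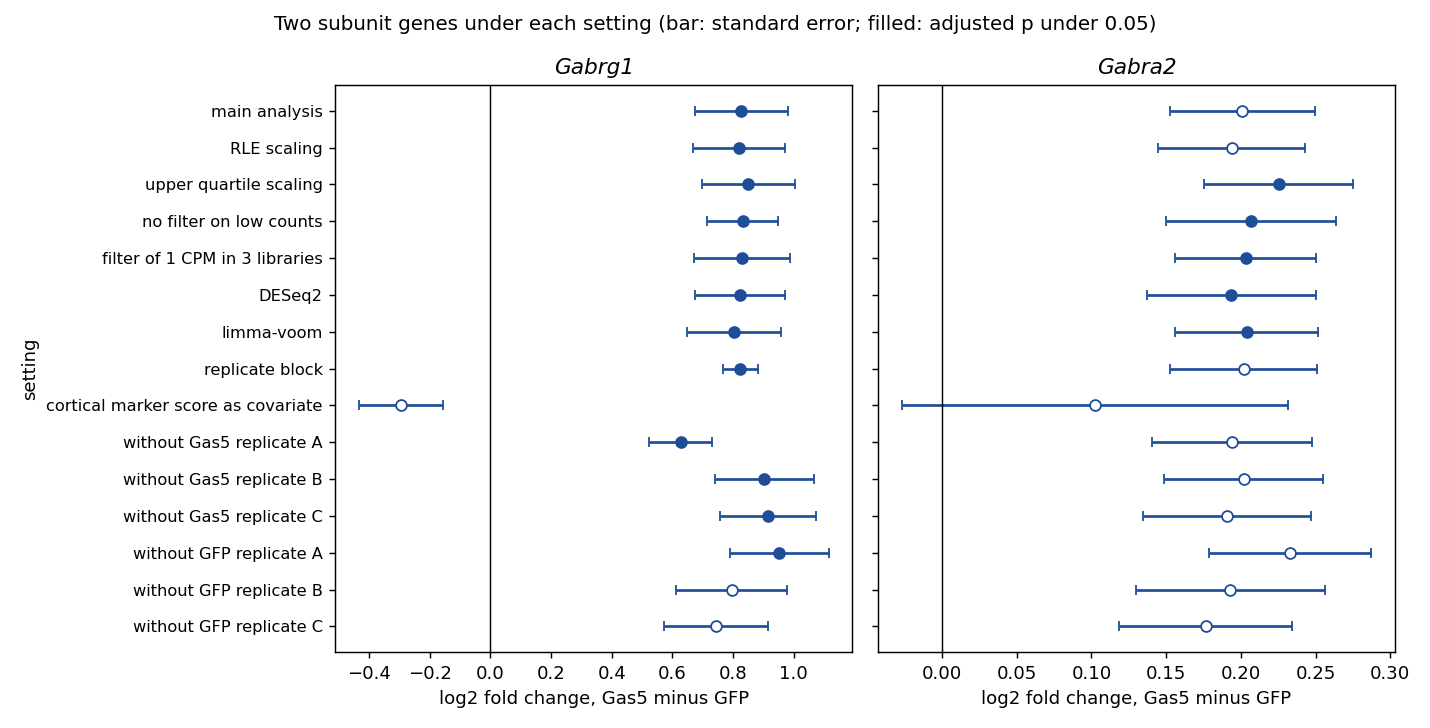
Log2 fold change, Gas5 minus GFP, with its standard error (horizontal axis) of Gabrg1 and Gabra2 under the main analysis and 14 alternatives (vertical axis), filled where the adjusted p was under 0.05. Gabrg1 lies between 0.63 and 0.95 in all but the fit with the cortical marker score, at -0.30, and Gabra2 lies between 0.10 and 0.23 and is filled in 5 of 14.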

How the data were processed

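Raw counts per gene for 6 libraries were used as deposited, as whole numbers, per the file headers. The submitters' processing notes list Trim Galore 0.4.4, STAR 2.7.0 together with featureCounts 1.5.0-p3, with GRCm38.p6 as build. The settings for strand and for overlapping genes were not given in the sources used here, and were read from genes that lie inside others. Each deposited length is the whole span for each gene described, so intronic reads were counted. Spans, and exons from GENCODE M21, matched by coordinates. Overlaps between listed genes were computed from the deposited coordinates.

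Counts were fitted in R 4.3.3 with edgeR 4.0.16 on all 6 libraries: default expression filter, TMM, and a 2-sided quasi-likelihood F-test of Gas5 minus GFP with Benjamini-Hochberg adjustment over 17563 genes and a threshold of 0.05. Standard errors are the absolute log2 fold change over the square root of F. The common biological coefficient of variation was 8.28%. Logarithms of CPM used a pseudocount of 0.5. DESeq2 1.42.0 and limma 3.58.1 (voom) were alternatives, beside other scalings and filters, the replicate letter as a block, the cortical marker score as a covariate and leaving out each library. The fits were tested on simulated data. No 2 libraries of a group looked like 1 library deposited again (chi-square per degree of freedom 5.05 to 25.4).

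The genes and lists were chosen with earlier results of these data known. Named genes were the 7 genes, Gas5, a cluster neighbour (Gabrb1), up to 6 called members of each list or else the 2 of smallest p, and the 3 genes nearest in pattern to a called member. Some genes under this rule and of the subunit list are not reported here, and counts of the other subunits leave them out. The other subunits with values, and the genes at 0, were named after their values were seen.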

Additional observations from a re-analysis of the deposited data

How the results depend on the processing

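The 14 alternatives for the fits were other scalings (RLE, upper quartile), no filter on low counts, a filter of 1 CPM in 3 libraries, DESeq2, limma-voom, the replicate letter as a block, the cortical marker score as a covariate, and leaving out each library. Shares were also computed from plain CPM and, chosen after seeing the data, with the unshared length. Of 769 comparisons of a result with an alternative, 618 kept direction and side of the threshold, 26 reversed, 54 lost a call, 25 gained one and 46 moved. No scaling moved the median of all genes by more than 0.0241 (log2).

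Higher calls over all genes numbered 260, but 656 without the filter, 495 with DESeq2, 510 with the block and 4 to 251 with a library left out. Lower calls numbered 695, and 101 to 611 with a library left out. Among the 7 genes 1 was called higher, but 2 (Gabrg1 and Gabra2) under upper quartile scaling, without the filter, with the 1 CPM filter, DESeq2 and limma-voom, and 0 to 1 with a library left out. The Gabra2 values in those 5 fits were 0.23, 0.21, 0.20, 0.19 and 0.20. Of the other subunits reported 1 was called higher without the filter and 1 with DESeq2, against 0, and with a library left out 0 to 1 were higher and 0 lower. Of the anchoring genes 3 were lower without the filter, 3 with DESeq2 and 2 with the block, against 1, and with a library left out 0 to 1 were higher and 0 to 2 lower. The shares of all genes called lower without the filter and with DESeq2 are not given here. Of the GABA synthesis and transport genes 0 to 2 were higher with a library left out. Of the modulators, 2 were higher and 1 lower without the filter and with DESeq2, 1 was lower with the block, and 0 to 1 were higher with a library left out.

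With a library left out, log2 fold changes spanned 0.63 to 0.95 for Gabrg1, 0.33 to 0.42 for Gas5, -0.12 to 0.12 for Gabrg3 and -0.027 to 0.12 for Gabrd (-0.027 without Gas5 B, -0.01 without Gas5 C). Gabrg3 was -0.12 without Gas5 C and -0.05 without GFP C. The share of Gabrg3 spanned -1.35 to 0.742 percentage points (0.742 without Gas5 B, 0.488 without GFP A), and that of Gabrd -1.47 to 0.552 (0.552 when Gas5 A was dropped).

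With the cortical marker score, 0 genes were called higher and 0 lower in the table, among the 7 genes and in each list. Gas5 stood at 0.38 and lost its call. Among reported genes, directions turned for Gabrg1 (-0.30), Gabra4 (0.38), Gabra5 (0.0027), Gabrb1 (-0.033), Gabre (-1.50), Gabrq (-1.42), Gabrr1 (-0.60), Gabrr2 (0.80), Hap1 (-0.28), Plcl1 (0.24), Tspo (-0.056), Cyp11a1 (0.61), Dpyd (-0.56), Bcl11b (0.19), Cd24a (-0.69), Sox11 (-0.39), Aqp4 (-0.17), Pdgfra (-0.040) and Tmem119 (-0.20). The score separates the groups, so this fit cannot tell score from group, and the cause was not tested.

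Correlations between libraries followed the replicate letter for A and B but not for C, and the labels do not say how letters were assigned. Deviations from the group means correlated over 17563 genes at r = 0.16 for letter A, 0.18 for B and -0.09 for C. Gas5 A and Gas5 B each correlated best with the GFP library of the same letter, and Gas5 C with GFP A (0.06). With the letter as a block 510 genes were higher and 928 lower, and of the 7 genes 1 remained called higher, Gabrg1 (0.82). Gabra5 had the fewest counts of the 7 genes, 195 to 364. Among the other tested subunits the depth was lower still for Gabrr1 (21 to 82 counts), Gabrr2 (43 to 88), Gabre (6 to 40) and Gabrq (16 to 188).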
